A study of Mus musculus with 18 samples.

Results

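The subject here is a set of 50 genes of the cell division cycle, read as 2 modules, in single CD4 T cells of the mouse spleen. The replication module holds 22 genes that copy the genome or drive entry into that copying, and the mitosis module holds 28 genes that condense, hold, sort and separate the copied chromosomes. Members were matched by symbol among the 33006 genes of the count matrix, and all 50 were found. UMIs were counted in 26652 cells of 18 samples. A UMI, or unique molecular identifier, is a tag that marks each captured transcript so that copies made by PCR are counted once. Libraries came from 10x Genomics kits that read the 3′ end of each transcript.

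Only male mice were used, and each group was sorted from spleen for CD4 T cells carrying TCRβ. The ∆Foxp3 mice were C57BL/6 with the Foxp3DeltaEGFPiCre allele and a ROSA-YFP reporter, taken at 3 weeks (21 days). Foxp3 is the transcription factor that regulatory T cells (Treg) need, so this allele removes its function from every cell that would use it. Intact WT mice carried the Foxp3-IRES-GFP reporter, in which Foxp3 is kept. A first experiment with the V2 kit compared 2 ∆Foxp3 samples with 2 WT samples, all from mice aged 3 weeks. A second experiment with the V3 kit held 2 samples of ∆Foxp3 mice aged 3 weeks and 2 of WT mice aged 9 weeks, whose strain was also crossed to CD45.1. Age and genotype change together in that second contrast. The same experiment held 3 mixed bone marrow chimeras, each giving 1 ∆Foxp3 and 1 WT sample. Their recipients were irradiated with 1000 rad at 7 weeks and got marrow freed of CD3+ cells. Each genotype supplied 50% of that marrow, the ∆Foxp3 donors being CD45.1/2 and 21 days old. The spleens were taken 10 weeks after transplant, which adds up to more than the 16 weeks of the age label. Sorted GFP+ Treg and GFP-negative conventional T cells (Tconv) of WT mice aged 9 weeks gave 2 samples each. Outside the chimeras, the 2 V3 samples of a group carry the same hashtag antibody in 2 different 10x channels. They may come from 1 animal, in which case the spread behind the p-values is technical.

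A T cell that leaves rest first induces the cyclin E genes and E2F transcription factors, which switch on the genes that load the MCM helicase, make deoxynucleotides and run the replication fork. Once the genome is copied, cyclin A, cyclin B and CDK1 take over, and kinases, motor proteins and kinetochore proteins carry the cell through mitosis until the anaphase promoting complex ends it. Naive CD4 T cells are mostly quiescent, and mice without functional Foxp3 are known for a fatal expansion of activated CD4 T cells. At promoters, E2F sites are known for driving replication genes, while the CHR element next to CCAAT boxes is known for holding mitotic genes down until the end of the cycle.

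Promoters of the 2 modules were searched for these letters. The window searched ran over 300 bases, from 250 before to 50 after each transcription start in RefSeq (build GRCm38.p6), on both strands. It was available for 19 of 22 replication genes, with 21 promoters, and for 24 of 28 mitosis genes, with 24 promoters. Mcm4, Gins2, Ccne2, Ccna2, Aurkb, Tpx2 and Stmn1 were not in the promoter table. An E2F motif (TTTCCCGC, TTTCGCGC, TTTGCCGC or TTTGGCGC) stood in 8 of 21 replication promoters (38.1%), in 1 of 24 mitosis promoters (4.17%) and in 2.26% of all 32851 promoters of the table. The replication genes with it were Cdc6, Cdt1, Hells, Mcm3, Mcm5, Mcm6, Mcm7 and Uhrf1, and the mitosis gene was Cdk1. The CHR letters (TTTGAA or TTCGAA) stood in 3 of 21 replication promoters (14.3%), 19 of 24 mitosis promoters (79.2%) and 19.2% of all promoters. CCAAT was found in 61.9% of replication promoters, 87.5% of mitosis promoters and 37.4% of all. CHR letters together with CCAAT were held by 18 of 24 mitosis promoters (75%), 3 of 21 replication promoters (14.3%) and 7.52% of all. Letters of 2 motifs overlapped in 1 replication promoter and no mitosis promoter. These are matches of letters, not sites of measured binding. Below are the 250 bases before the start of 2 helicase genes with E2F letters in capitals, Mcm5 (chr8:75109259-75109508, + strand) and Mcm6 (chr1:128359706-128359955, − strand), and of 2 mitotic genes with CHR and CCAAT letters in capitals, Top2a (chr11:99024190-99024439, − strand) and Cdc20 (chr4:118437344-118437593, − strand). They are printed 5′ to 3′ on the gene's strand, as examples of each promoter type among the genes described next.
Mcm5: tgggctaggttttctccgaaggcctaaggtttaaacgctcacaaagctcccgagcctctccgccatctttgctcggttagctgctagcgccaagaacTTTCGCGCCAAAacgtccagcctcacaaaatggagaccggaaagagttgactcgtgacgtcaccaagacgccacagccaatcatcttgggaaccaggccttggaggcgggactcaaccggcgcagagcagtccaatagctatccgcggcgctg
Mcm6: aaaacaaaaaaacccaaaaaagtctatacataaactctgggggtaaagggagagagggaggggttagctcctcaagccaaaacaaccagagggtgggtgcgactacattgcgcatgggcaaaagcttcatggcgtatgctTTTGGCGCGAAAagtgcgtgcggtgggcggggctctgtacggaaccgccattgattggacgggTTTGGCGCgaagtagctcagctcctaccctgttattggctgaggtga
Top2a: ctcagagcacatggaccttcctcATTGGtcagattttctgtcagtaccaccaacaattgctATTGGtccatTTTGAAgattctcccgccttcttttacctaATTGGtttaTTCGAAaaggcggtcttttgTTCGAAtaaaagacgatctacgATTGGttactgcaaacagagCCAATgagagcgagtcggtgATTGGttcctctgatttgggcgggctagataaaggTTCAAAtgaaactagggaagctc
Cdc20: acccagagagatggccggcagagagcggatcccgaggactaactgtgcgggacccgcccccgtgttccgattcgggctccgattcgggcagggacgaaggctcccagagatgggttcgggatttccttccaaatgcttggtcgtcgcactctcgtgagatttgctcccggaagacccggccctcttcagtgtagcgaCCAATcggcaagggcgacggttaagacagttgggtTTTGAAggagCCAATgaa

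V2 samples held 1442 to 5271 cells and 4267372 to 14887898 UMIs, with medians of 2774 to 3143 UMIs per cell. V3 samples held 148 to 2136 cells and 955097 to 11884169 UMIs, with medians of 4731 to 8856.5. All 6 T cell markers tested (Cd3e, Cd3d, Cd3g, Cd4, Trac and Trbc2) were present in every sample, at a summed 3688 to 6223 CPM (UMIs scaled to the same total in every sample). UMIs of the Cre transgene occurred in 6 of 7 ∆Foxp3 samples and in 0 of 11 WT samples. Of 26549 cell barcodes, 102 occurred in more than 1 of the 6 libraries. In 1 ∆Foxp3 sample of the first experiment (replicate B), 35.4% of cells held UMIs of 2 or more erythroid genes, against 3.57% to 6.32% in the other 3 V2 samples. No sample was set aside, and results that rest on the samples named here are given with their values below.

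Summed over all cells, the mitosis module reached 3469 and 5815 CPM in ∆Foxp3 mice versus 726 and 1077 CPM in WT mice, and 997 and 1595 CPM in ∆Foxp3 mice versus 611 and 633 CPM in WT mice in the first experiment. In the chimeras the order of the genotypes was the other way, with 547, 644 and 539.8 CPM in ∆Foxp3 cells versus 1300.2, 665 and 1531 CPM in WT cells. The replication module had a narrower spread. It stood at 533 and 609 CPM in ∆Foxp3 mice versus 432 and 427 CPM in WT mice in the first experiment and at 876 and 1513 CPM in ∆Foxp3 mice versus 362 and 523 CPM in WT mice in the second. Chimera samples held 371, 451 and 356 CPM in ∆Foxp3 cells versus 572, 408 and 524 CPM in WT cells. These sums lean on a few members. Hmgb2, a chromatin protein abundant in dividing lymphocytes, gave 42.6% of the mitosis UMIs in V3 samples and 45.6% in V2 samples, followed by the tubulin gene Tubb4b (10.3% and 17.5%) and the tubulin-binding gene Stmn1 (7.8% and 10.7%). In bulk sums of this kind, fewer cells of a type and less RNA per cell cannot be told apart.

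**Figure D1:**
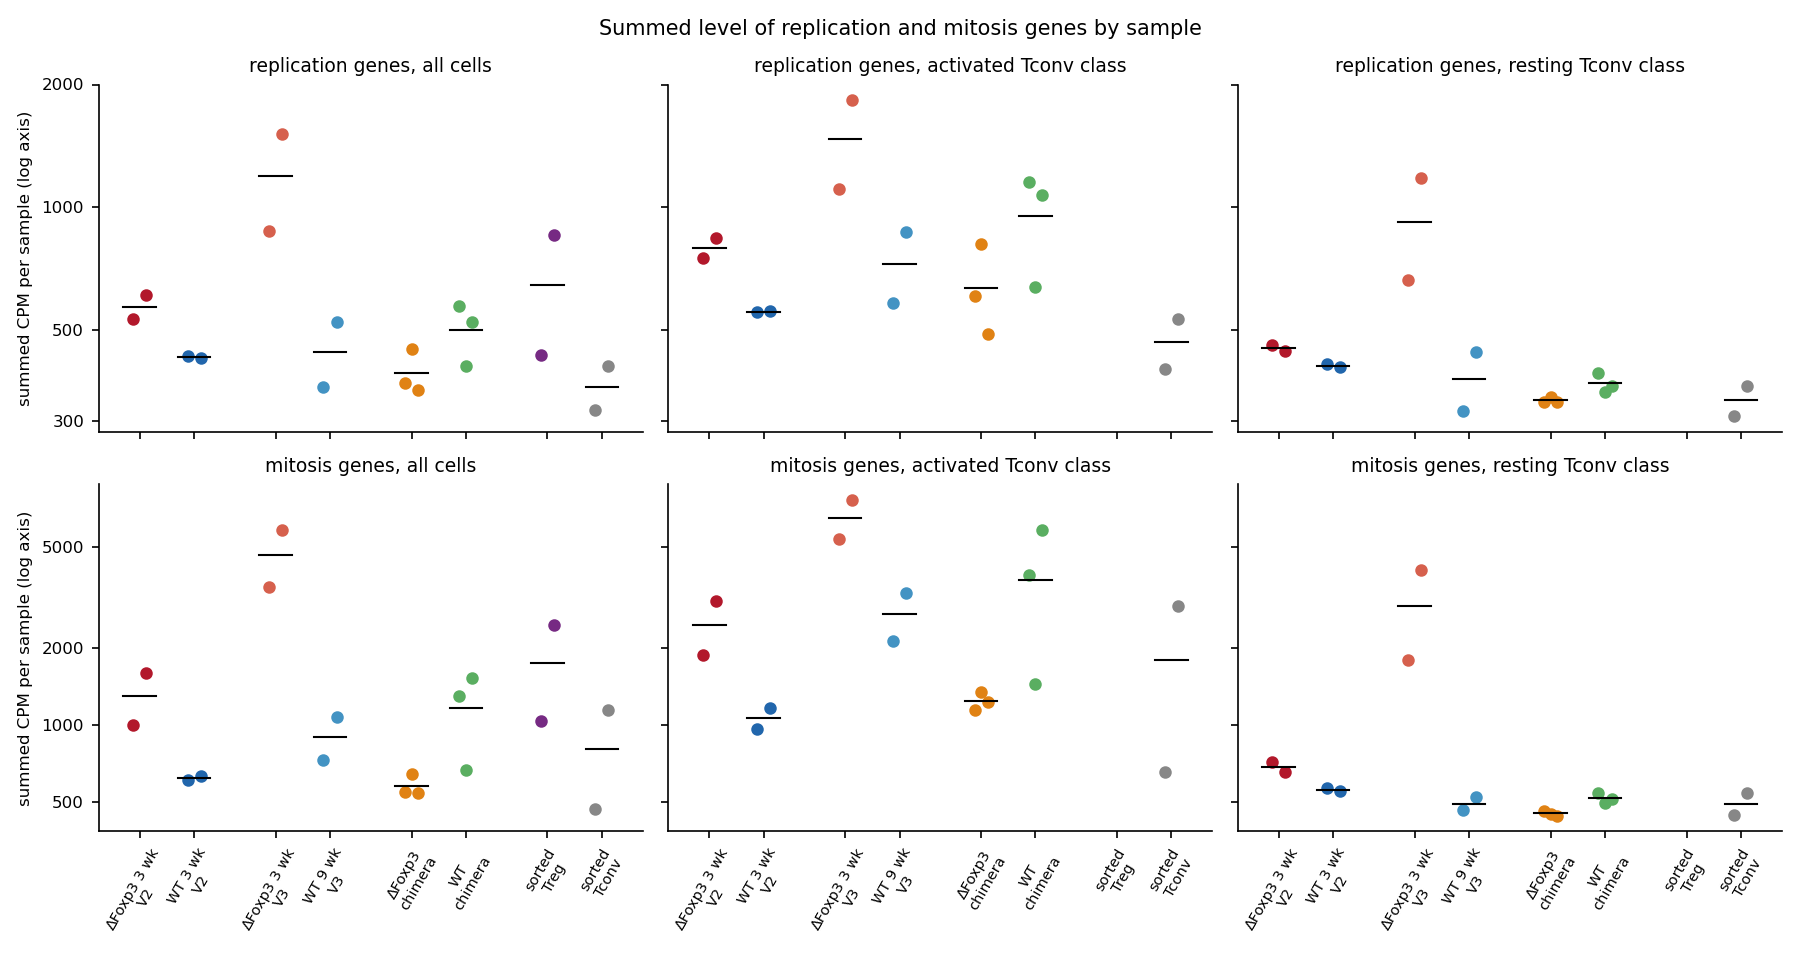
Summed level of the replication genes (top) and mitosis genes (bottom) in every sample, in CPM on a log axis, for all cells, activated Tconv and resting Tconv. Points are samples and horizontal lines are group means. Over all cells, mitosis levels of both V3 ∆Foxp3 mouse samples stand above all other samples of the second experiment, and those of the ∆Foxp3 chimera cells stand below the WT chimera cells.

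The first comparison asked how ∆Foxp3 and WT mice of the same age differ. Of 22 replication members tested, 10 rose in ∆Foxp3 mice and 0 fell, with a median log2 fold change of 0.65. Of 27 mitosis members tested, 23 rose and 1 fell, with a median of 2.6. Among all 10675 genes tested, 14.4% rose and 9.61% fell, with a median of -0.01. A call means an adjusted p under 0.05 by edgeR's quasi-likelihood test with Benjamini-Hochberg adjustment over all genes tested.

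Among helicase genes, 5 of 10 rose in ∆Foxp3 mice. Mcm5, a subunit of the MCM helicase that opens the DNA, measured 20.8 and 20.6 CPM in ∆Foxp3 mice versus 12.8 and 12.5 CPM in WT mice (edgeR log2 fold change 0.66 ± 0.11 SE, adjusted p = 0.0114). Mcm6, another subunit, measured 55.3 and 62.8 CPM in ∆Foxp3 mice versus 34.3 and 33.7 CPM in WT mice (edgeR log2 fold change 0.73 ± 0.09 SE, adjusted p = 0.00407). For both genes the ∆Foxp3 samples stood above the WT samples with a clear gap. Mcm4 belongs to the same ring of proteins, yet it measured 25.9 and 24.1 CPM in ∆Foxp3 mice versus 30.9 and 26.2 CPM in WT mice (edgeR log2 fold change -0.24 ± 0.12 SE, adjusted p = 0.199), with the ∆Foxp3 samples the lower ones. Cdc6, which loads the helicase at origins, had the largest difference of the module: 1.34 and 1.64 CPM in ∆Foxp3 mice versus 0.0672 and 0.176 CPM in WT mice. Because the WT samples held 3 UMIs of it in all, its size is given as a ratio of 12.5 (3.74 to 65.5) (95% counting interval). Cdt1, its partner in loading, did not pass the test, at 13.5 and 13.8 CPM in ∆Foxp3 mice versus 15.3 and 16 CPM in WT mice (edgeR log2 fold change -0.25 ± 0.12 SE, adjusted p = 0.191). Both loaders carry E2F letters in their promoters, and Cdc6 stood above WT and Cdt1 below it.

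All 4 genes of deoxynucleotide supply rose. Rrm2, the subunit of ribonucleotide reductase that cells make for replication, measured 19.7 and 28.6 CPM in ∆Foxp3 mice versus 4.97 and 4.04 CPM in WT mice (edgeR log2 fold change 2.31 ± 0.22 SE, adjusted p = 0.00211). Tyms, thymidylate synthase, measured 18.3 and 30 CPM in ∆Foxp3 mice versus 10.7 and 9.93 CPM in WT mice (edgeR log2 fold change 1.11 ± 0.23 SE, adjusted p = 0.0181). Rrm1 and Dut, the large reductase subunit and the dUTPase, rose by less, with log2 fold changes of 0.53 and 0.63. Of the clamp and chromatin copying group, 1 of 5 rose. This was Uhrf1, which copies DNA methylation to new strands, at 5.27 and 7.97 CPM in ∆Foxp3 mice versus 1.54 and 1.76 CPM in WT mice (edgeR log2 fold change 1.88 ± 0.30 SE, adjusted p = 0.00895). Pcna, the sliding clamp of the replication fork, did not pass the test: 66.9 and 68.7 CPM in ∆Foxp3 mice versus 61.4 and 62.7 CPM in WT mice (edgeR log2 fold change 0.07 ± 0.07 SE, adjusted p = 0.526). Its 2 ∆Foxp3 samples were both higher, by a small margin. Ung, which removes uracil from DNA, was likewise short of it, at 15.4 and 15.5 CPM in ∆Foxp3 mice versus 16.9 and 16.1 CPM in WT mice (edgeR log2 fold change -0.15 ± 0.12 SE, adjusted p = 0.404). None of the 3 drivers of the G1/S step passed the threshold. E2f1, the transcription factor that gives the E2F motif its name, came nearest, with 5.27 and 4.22 CPM in ∆Foxp3 mice versus 2.75 and 2.2 CPM in WT mice (edgeR log2 fold change 0.91 ± 0.27 SE, adjusted p = 0.0518).

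The mitotic cyclins and kinases rose as a whole, 9 of 9, with a median log2 fold change of 2.6. Cdk1, the kinase that starts mitosis, measured 8.53 and 14.8 CPM in ∆Foxp3 mice versus 1.68 and 1.41 CPM in WT mice (edgeR log2 fold change 2.77 ± 0.34 SE, adjusted p = 0.00397). Its partner cyclin B1, from Ccnb1, measured 8.24 and 14.8 CPM in ∆Foxp3 mice versus 0.873 and 2.72 CPM in WT mice (edgeR log2 fold change 2.61 ± 0.51 SE, adjusted p = 0.0158). Ccnb2, the second cyclin B gene, differed more: 22.3 and 53 CPM in ∆Foxp3 mice versus 1.61 and 3.78 CPM in WT mice (edgeR log2 fold change 3.72 ± 0.53 SE, adjusted p = 0.00612). In each of these genes replicate B of the ∆Foxp3 mice was the highest of the 4 samples. All 4 checkpoint and anaphase genes that could be tested rose. Birc5 encodes survivin, a subunit of the chromosomal passenger complex, and had the largest fold change of all members tested with over 3 UMIs per group, at 26.7 and 55.5 CPM in ∆Foxp3 mice versus 2.02 and 2.99 CPM in WT mice (edgeR log2 fold change 3.94 ± 0.41 SE, adjusted p = 0.00271). Bub1b, a spindle checkpoint kinase, measured 2.68 and 4.45 CPM in ∆Foxp3 mice versus 0.336 and 0.0878 CPM in WT mice (edgeR log2 fold change 3.76 ± 0.57 SE, adjusted p = 0.00761). Bub1, the related checkpoint kinase, was too rare for the test, with 14 UMIs in ∆Foxp3 samples and 2 in WT samples, a ratio of 12.5 (2.87 to 113).

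Of the remaining roles, all 3 centromere genes and all 3 chromosome structure genes rose. Mki67, which coats mitotic chromosomes and is the common marker of cycling cells, measured 7.48 and 15.7 CPM in ∆Foxp3 mice versus 0.336 and 1.67 CPM in WT mice (edgeR log2 fold change 3.47 ± 0.63 SE, adjusted p = 0.0129). Top2a, the topoisomerase that untangles copied chromosomes, measured 22.6 and 30.5 CPM in ∆Foxp3 mice versus 5.17 and 5.97 CPM in WT mice (edgeR log2 fold change 2.17 ± 0.19 SE, adjusted p = 0.00171). The spindle genes were divided, with 4 of 8 higher and 1 lower. Tubb4b, a beta tubulin, was the 1 member of either module that fell, at 117 and 87.6 CPM in ∆Foxp3 mice versus 166 and 158 CPM in WT mice (edgeR log2 fold change -0.71 ± 0.14 SE, adjusted p = 0.016). The motor genes Kif20b and Kif23, which act in cytokinesis, did not pass the test. Kif23 overlapped between the groups, at 12.5 and 15.9 CPM in ∆Foxp3 mice versus 7.86 and 12.8 CPM in WT mice (edgeR log2 fold change 0.38 ± 0.27 SE, adjusted p = 0.341), and Kif20b measured 6.14 and 9.37 CPM in ∆Foxp3 mice versus 4.77 and 5.71 CPM in WT mice (edgeR log2 fold change 0.45 ± 0.26 SE, adjusted p = 0.252).

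Erythroid genes, 6 of 6 measured, summed to 133 and 606 CPM in ∆Foxp3 samples, against 183 and 129 CPM in WT samples, so that replicate B of the ∆Foxp3 mice stood apart and replicate A did not. Myeloid markers, 10 of 11 measured, moved with genotype, at 126 and 143 CPM in ∆Foxp3 samples, against 97.1 and 97.9 CPM in WT samples, and 2 of 7 tested rose. Of 8 B cell markers tested, 5 rose and 2 fell, while their list summed to 241 and 201 CPM in ∆Foxp3 samples, against 211 and 239 CPM in WT samples. Reads that fell in called cells made up a fraction of 0.597 and 0.534 of the ∆Foxp3 libraries, against 0.791 and 0.795 of the WT libraries. With all cells removed that held 2 or more marker genes of another cell type, 10 replication members rose, and 23 mitosis members rose and 1 fell, as with all cells. The share of all genes called in that fit is not given. Fewer members of both modules were called without WT replicate A and without WT replicate B. Those fits leave 1 WT sample, and their shares of all genes are not given either.

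**Figure D2:**
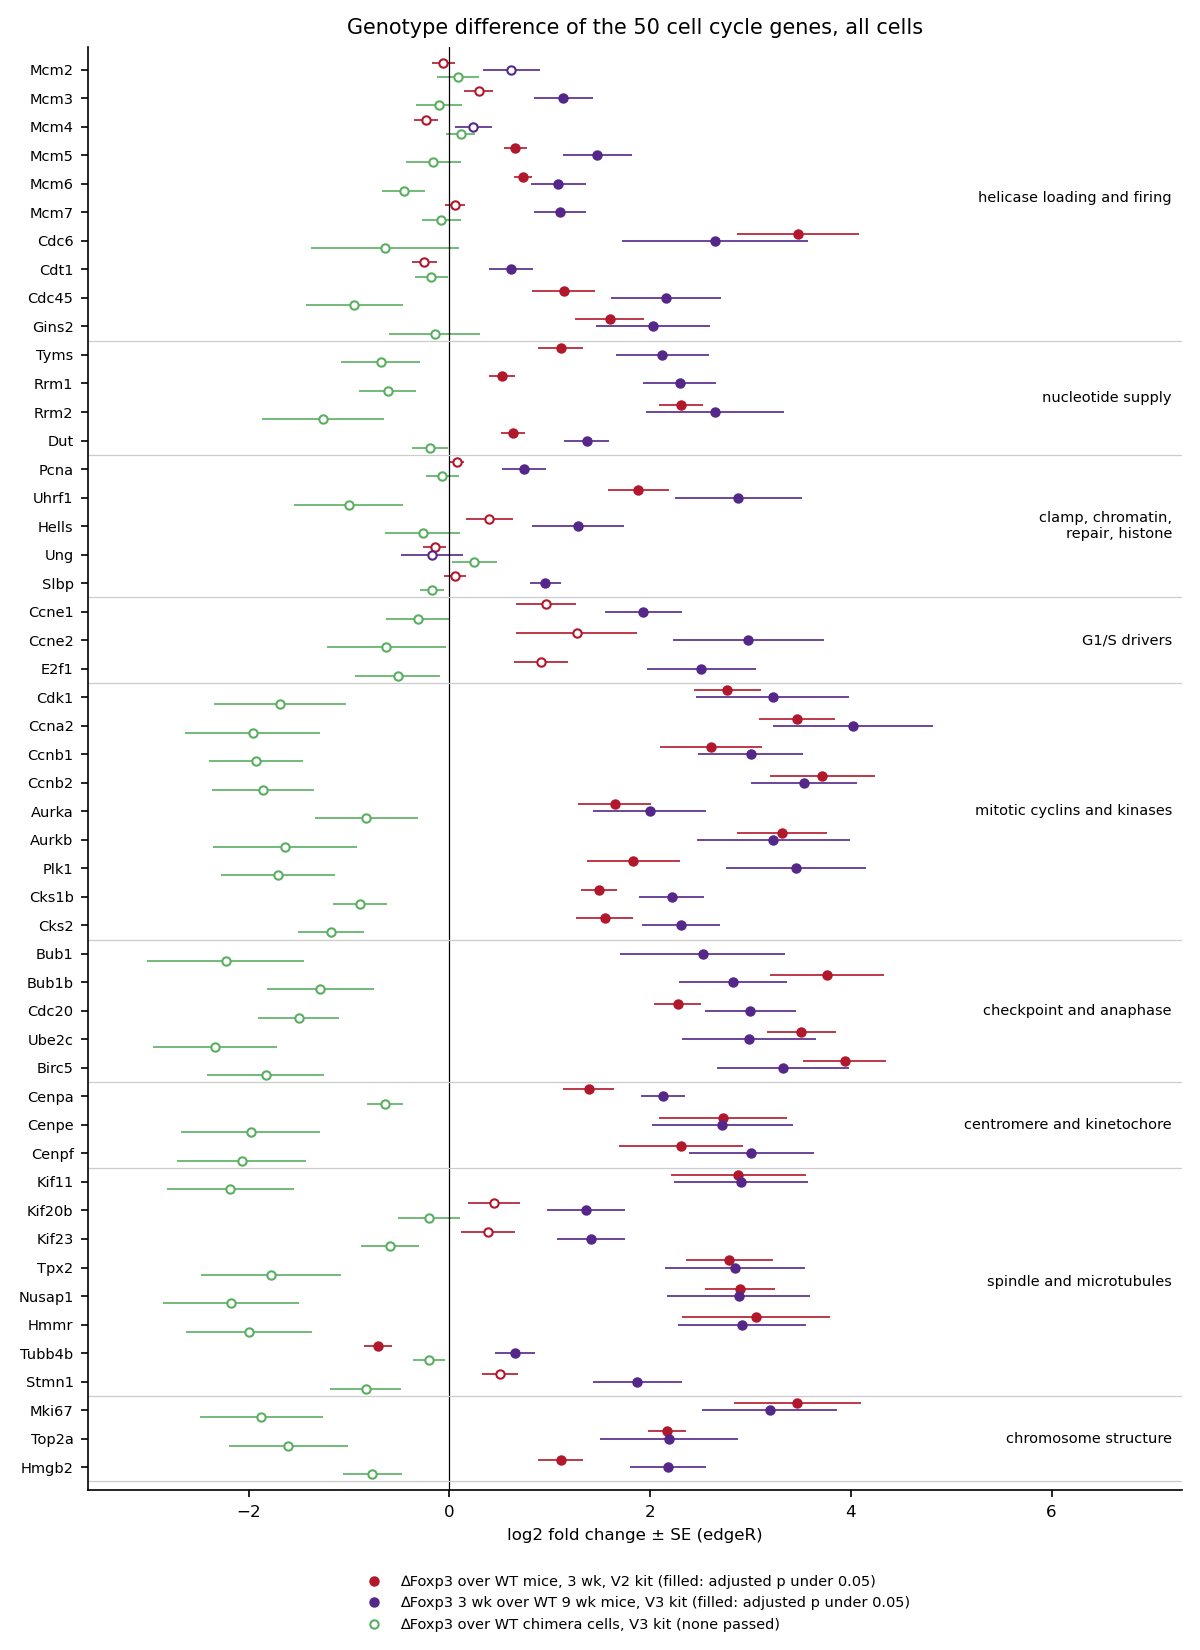
Log2 fold change of each member, ∆Foxp3 over WT, with its SE as a bar, ordered by role from helicase loading (top) to chromosome structure. Red points are the V2 mice, purple points the V3 mice and green points the chimeras, and filled points passed the test. Mitosis members lie right of 0 in both mouse comparisons, apart from Tubb4b in the V2 mice, and all 28 lie left of 0 in the chimeras with 0 filled.

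The second pair of mouse groups set ∆Foxp3 mice aged 3 weeks against WT mice aged 9 weeks with the deeper kit. Here 19 of 22 replication members rose, with a median log2 fold change of 1.42, and 28 of 28 mitosis members rose, with a median of 2.86. Of all 10918 genes tested, 22.1% rose and 20.9% fell (43% in all), with a median of -0.00498. All 10 replication members that rose in the first experiment were among the 19. The 23 mitosis members that rose there had to be among those here, since all 28 rose. The share of all genes that rose in both experiments is not given. Those called here alone were Ccne1, Ccne2, Cdt1, E2f1, Hells, Mcm3, Mcm7, Pcna and Slbp in the replication module, and Bub1, Kif20b, Kif23, Stmn1 and Tubb4b in the mitosis module. The 2 experiments share no samples. Before TMM scaling, the median gene stood 0.23 higher (log2) in ∆Foxp3 than in WT samples of this comparison, and fold changes are relative to it.

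At the helicase, 8 of 10 genes rose. Mcm5 measured 40.3 and 79.8 CPM in ∆Foxp3 mice versus 14 and 25.8 CPM in WT mice (edgeR log2 fold change 1.47 ± 0.34 SE, adjusted p = 0.00278). The rare loader Cdc6 measured 2.5 and 8.58 CPM in ∆Foxp3 mice versus 0.229 and 1.67 CPM in WT mice (edgeR log2 fold change 2.65 ± 0.93 SE, adjusted p = 0.0321). Cdt1, which missed the threshold in the first experiment, measured 23.2 and 27.3 CPM in ∆Foxp3 mice versus 13.1 and 15.8 CPM in WT mice (edgeR log2 fold change 0.61 ± 0.22 SE, adjusted p = 0.034). All 3 genes were higher in both ∆Foxp3 samples than in either WT sample. Mcm4 and Mcm2 were the helicase genes that did not pass. Mcm4 overlapped between the groups, at 33.2 and 51.1 CPM in ∆Foxp3 mice versus 28.6 and 34.1 CPM in WT mice (edgeR log2 fold change 0.24 ± 0.18 SE, adjusted p = 0.323), and Mcm2 had a log2 fold change of 0.62 (adjusted p = 0.0919 by edgeR).

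G1/S drivers rose in this comparison, 3 of 3. Ccne2, a cyclin E gene, had the largest replication difference, at 3.75 and 7.42 CPM in ∆Foxp3 mice versus 0.458 and 0.833 CPM in WT mice (edgeR log2 fold change 2.98 ± 0.76 SE, adjusted p = 0.00507). E2f1 measured 7.51 and 14.5 CPM in ∆Foxp3 mice versus 1.15 and 2.5 CPM in WT mice (edgeR log2 fold change 2.51 ± 0.55 SE, adjusted p = 0.00178). Nucleotide supply rose again in 4 of 4 genes, with Rrm2 at 48.1 and 139 CPM in ∆Foxp3 mice versus 7.56 and 21.6 CPM in WT mice (edgeR log2 fold change 2.64 ± 0.69 SE, adjusted p = 0.00585). Of the clamp and chromatin group, 4 of 5 rose. Uhrf1 measured 19.3 and 37.4 CPM in ∆Foxp3 mice versus 2.29 and 5.0 CPM in WT mice (edgeR log2 fold change 2.88 ± 0.63 SE, adjusted p = 0.00181), and Pcna, not called in the first experiment, measured 53 and 84 CPM in ∆Foxp3 mice versus 31.2 and 41.2 CPM in WT mice (edgeR log2 fold change 0.74 ± 0.22 SE, adjusted p = 0.0141). Ung stood apart, with overlapping values of 8.34 and 17.3 CPM in ∆Foxp3 mice versus 11 and 15 CPM in WT mice (edgeR log2 fold change -0.17 ± 0.31 SE, adjusted p = 0.684). Slbp, which binds histone messages during replication, had a log2 fold change of 0.96.

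Mitosis members were raised in every role. Ccna2, cyclin A2, bridges the 2 phases and had the largest fold change, at 56.6 and 124 CPM in ∆Foxp3 mice versus 3.44 and 7.08 CPM in WT mice (edgeR log2 fold change 4.02 ± 0.80 SE, adjusted p = 0.000915). Ccnb2 measured 98.3 and 159 CPM in ∆Foxp3 mice versus 8.25 and 11.7 CPM in WT mice (edgeR log2 fold change 3.53 ± 0.53 SE, adjusted p = 8.13e-05). Ccnb1 measured 34.5 and 65.2 CPM in ∆Foxp3 mice versus 5.04 and 5.83 CPM in WT mice (edgeR log2 fold change 3.0 ± 0.52 SE, adjusted p = 0.000323). For all 3 cyclins even the lower ∆Foxp3 sample stood several times above the higher WT sample. Cdk1 measured 34.6 and 88.1 CPM in ∆Foxp3 mice versus 4.81 and 7.08 CPM in WT mice (edgeR log2 fold change 3.22 ± 0.76 SE, adjusted p = 0.00322). Plk1, polo-like kinase 1, which matures the spindle poles, measured 15.6 and 34.5 CPM in ∆Foxp3 mice versus 1.15 and 3.33 CPM in WT mice (edgeR log2 fold change 3.46 ± 0.70 SE, adjusted p = 0.00103). Cdc20, which activates the anaphase promoting complex and carries the CHR letters printed above, measured 56.7 and 87.1 CPM in ∆Foxp3 mice versus 5.27 and 11.7 CPM in WT mice (edgeR log2 fold change 3.0 ± 0.45 SE, adjusted p = 8.58e-05). These kinase and anaphase genes were again highest in replicate 2 of the ∆Foxp3 mice.

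Cenpa, the histone that marks the centromere, had the lowest adjusted p of the mitosis module, at 189 and 259 CPM in ∆Foxp3 mice versus 40.1 and 49.1 CPM in WT mice (edgeR log2 fold change 2.13 ± 0.22 SE, adjusted p = 2.25e-06). Mki67 measured 120.0 and 227 CPM in ∆Foxp3 mice versus 12.4 and 22.5 CPM in WT mice (edgeR log2 fold change 3.19 ± 0.67 SE, adjusted p = 0.00141). Top2a measured 92 and 228 CPM in ∆Foxp3 mice versus 20.6 and 44.5 CPM in WT mice (edgeR log2 fold change 2.19 ± 0.68 SE, adjusted p = 0.0174). No ∆Foxp3 value of these genes reached down to the WT range. The smallest differences lay among spindle genes. Tubb4b measured 213 and 342 CPM in ∆Foxp3 mice versus 146 and 159 CPM in WT mice (edgeR log2 fold change 0.65 ± 0.20 SE, adjusted p = 0.0154), where it had fallen in the first experiment. Kif20b measured 21.8 and 42.5 CPM in ∆Foxp3 mice versus 10.5 and 11.2 CPM in WT mice (edgeR log2 fold change 1.36 ± 0.39 SE, adjusted p = 0.0101). Kif23 measured 22.7 and 38.8 CPM in ∆Foxp3 mice versus 9.39 and 10.8 CPM in WT mice (edgeR log2 fold change 1.41 ± 0.34 SE, adjusted p = 0.00363). Both motor genes were without overlap in this deeper pair.

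Replicate 2 of the ∆Foxp3 mice exceeded replicate 1 for nearly every member named, and the same held between the WT replicates. Replicates 1 ran in one 10x channel and replicates 2 in the other. Fewer members of both modules rose without ∆Foxp3 replicate 2 and without WT replicate 1 than with all samples. Each of these fits leaves 1 sample in a group, and their shares of all genes are not given. Myeloid markers moved with genotype, at a summed 216 and 234 CPM in ∆Foxp3 samples, against 97.8 and 117 CPM in WT samples (10 of 11 markers measured). Without cells that held 2 or more marker genes of another type, 18 replication and 27 mitosis members rose (share of all genes not given).

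**Figure D3:**
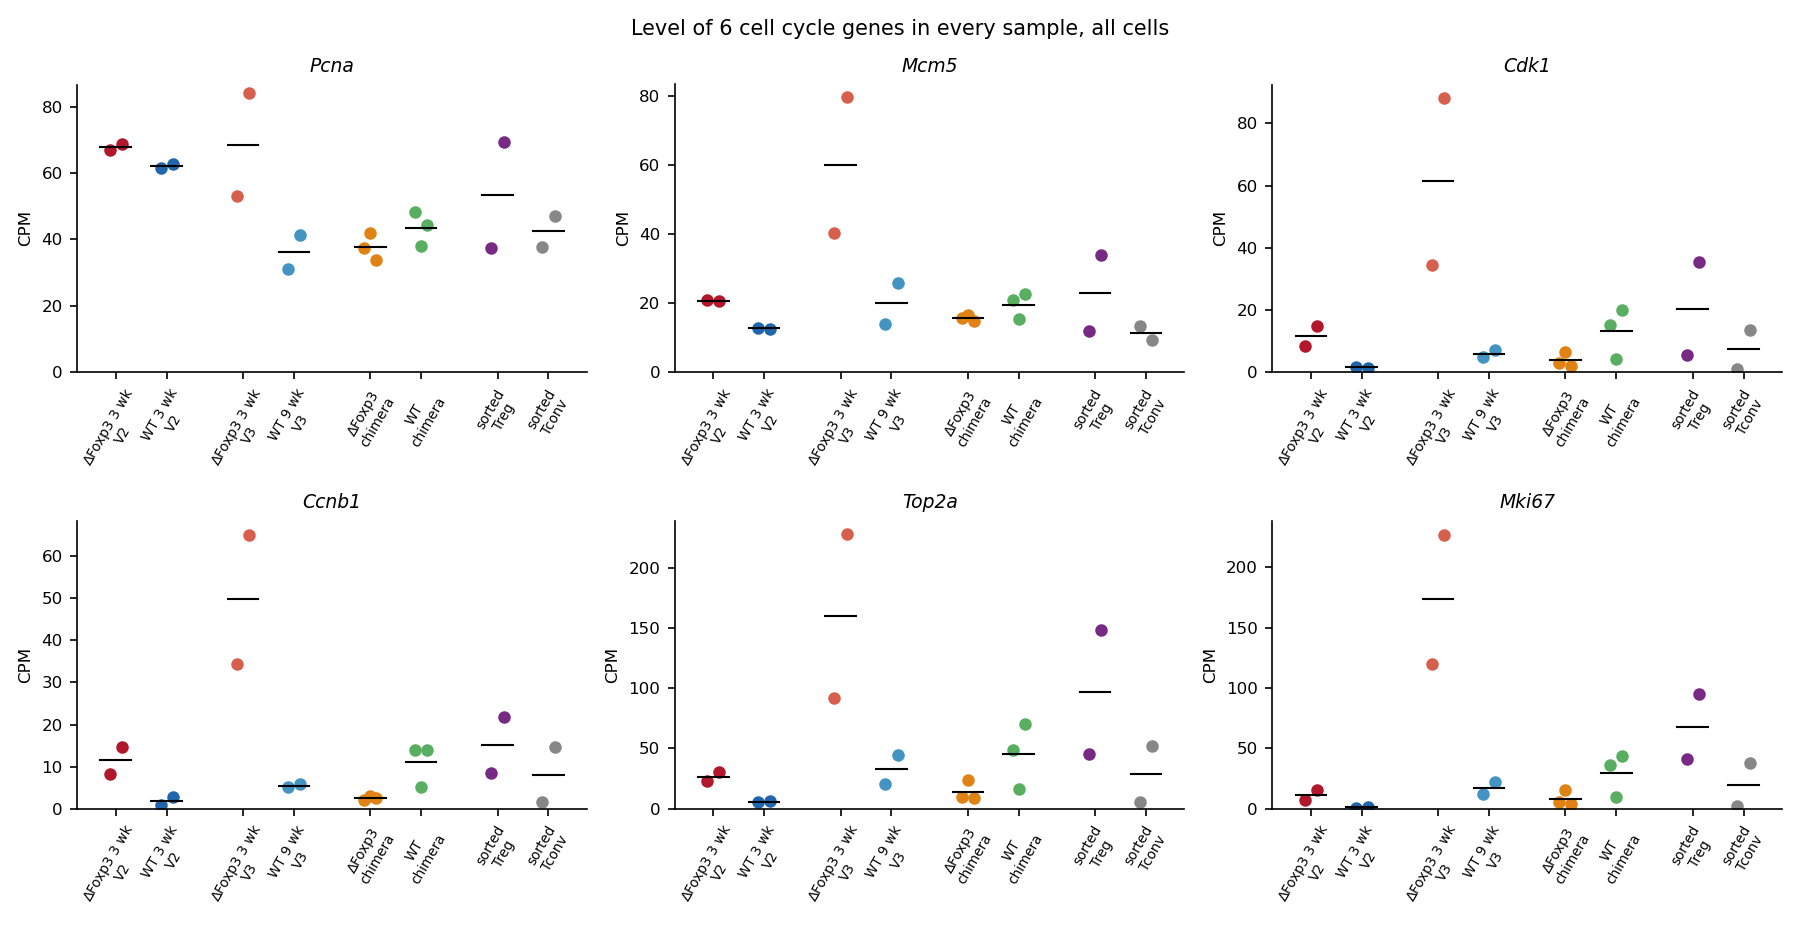
Level of 6 members fixed for every comparison (Pcna, Mcm5, Cdk1, Ccnb1, Top2a and Mki67) in each sample, in CPM of all cells on a linear axis. Points are samples and lines are group means. Replicate 2 of the V3 ∆Foxp3 mice is the highest sample for Pcna at 84 CPM and for Mcm5 at 79.8 CPM, and replicate 1 of that group lies within the range of the other samples for Pcna.

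In mixed chimeras, ∆Foxp3 and WT cells mature in the same host, where WT Treg are present. Here no member passed the test, of 22 replication and 28 mitosis members, at adjusted p under 0.05 by edgeR or DESeq2. At an unadjusted p under 0.05, edgeR counted 1 replication and 24 mitosis members (share of all genes at that threshold not given). At adjusted p under 0.05, 0.211% of all 10918 genes rose and 0.247% fell. All 28 mitosis members had a negative log2 fold change, with a median of -1.7, as had 19 of 22 replication members, with a median of -0.23. The median over all genes tested was -0.000623. Both cell types of a chimera come from the same mouse. With the mouse as a block in the model, 17 mitosis members fell and 0 replication members did, where 1.36% of all genes fell. The ∆Foxp3 and WT samples of each mouse ran in different 10x channels, so this block does not separate genotype from channel. The median mitosis log2 fold change was -1.81 in that fit. The median gene stood 0.13 lower (log2) in ∆Foxp3 cells before TMM scaling, and the sign of Mcm2 and Mcm4 depends on it.

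Among the replication genes, the 3 highest fold changes were small. Ung measured 12.5, 11.2 and 11 CPM in ∆Foxp3 cells versus 8.31, 11.6 and 11.8 CPM in WT cells (edgeR log2 fold change 0.25 ± 0.23 SE, adjusted p = 0.837). Mcm4 measured 28.6, 30 and 25.6 CPM in ∆Foxp3 cells versus 33, 25.2 and 28.2 CPM in WT cells (edgeR log2 fold change 0.11 ± 0.14 SE, adjusted p = 0.906). Mcm2 measured 20.3, 20.5 and 19.6 CPM in ∆Foxp3 cells versus 23.2, 18.7 and 21.2 CPM in WT cells (edgeR log2 fold change 0.09 ± 0.21 SE, adjusted p = 0.969). Ranges of both genotypes overlapped for all 3. Mcm5 and Pcna differed by less than their SE. Mcm5 measured 15.7, 16.7 and 14.7 CPM in ∆Foxp3 cells versus 20.9, 15.3 and 22.6 CPM in WT cells (edgeR log2 fold change -0.16 ± 0.27 SE, adjusted p = 0.948), and Pcna measured 37.4, 42 and 33.8 CPM in ∆Foxp3 cells versus 48.1, 38 and 44.3 CPM in WT cells (edgeR log2 fold change -0.07 ± 0.17 SE, adjusted p = 0.968). The lowest were Rrm2, at 4.88, 13.7 and 4.38 CPM in ∆Foxp3 cells versus 30.2, 6.74 and 21.5 CPM in WT cells (edgeR log2 fold change -1.26 ± 0.61 SE, adjusted p = 0.531), Uhrf1 and Cdc45. Uhrf1 measured 1.85, 4.34 and 1.58 CPM in ∆Foxp3 cells versus 7.24, 2.21 and 7.36 CPM in WT cells (edgeR log2 fold change -1.0 ± 0.54 SE, adjusted p = 0.622). Cdc45, which joins the MCM ring to make the active helicase, measured 1.35, 2.0 and 0.877 CPM in ∆Foxp3 cells versus 3.62, 2.21 and 2.94 CPM in WT cells (edgeR log2 fold change -0.95 ± 0.48 SE, adjusted p = 0.576) and was the only one of these 3 without overlap.

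The mitosis members were lower in ∆Foxp3 chimera cells by a larger margin. Ccnb1 measured 2.1, 3.0 and 2.45 CPM in ∆Foxp3 cells versus 13.8, 5.16 and 14 CPM in WT cells (edgeR log2 fold change -1.93 ± 0.47 SE, adjusted p = 0.0914), and with the mouse as a block -2.04 ± 0.30 SE (adjusted p = 0.00206 by edgeR). Ube2c, the ubiquitin carrier of the anaphase promoting complex, had the lowest fold change, at 6.23, 6.5 and 5.44 CPM in ∆Foxp3 cells versus 44.3, 7.79 and 55.6 CPM in WT cells (edgeR log2 fold change -2.33 ± 0.62 SE, adjusted p = 0.131), and with the block -2.47 ± 0.32 SE (adjusted p = 0.000584 by edgeR). For both genes every ∆Foxp3 sample lay below every WT sample. Kif11, the motor that separates the spindle poles, measured 1.68, 2.5 and 0.964 CPM in ∆Foxp3 cells versus 10.9, 2.74 and 12.7 CPM in WT cells (edgeR log2 fold change -2.18 ± 0.63 SE, adjusted p = 0.168), and with the block -2.33 ± 0.40 SE (adjusted p = 0.00615 by edgeR). Bub1 measured 0.505, 1.0 and 0.175 CPM in ∆Foxp3 cells versus 3.62, 0.632 and 4.42 CPM in WT cells (edgeR log2 fold change -2.23 ± 0.78 SE, adjusted p = 0.271), and with the block -2.38 ± 0.61 SE (adjusted p = 0.0501 by edgeR). Kif11 did not overlap between genotypes, while Bub1 did. Mki67 measured 5.22, 15.2 and 3.59 CPM in ∆Foxp3 cells versus 36.4, 9.58 and 43.8 CPM in WT cells (edgeR log2 fold change -1.87 ± 0.61 SE, adjusted p = 0.223). Top2a measured 9.51, 24 and 8.94 CPM in ∆Foxp3 cells versus 48.6, 16.4 and 70.5 CPM in WT cells (edgeR log2 fold change -1.6 ± 0.59 SE, adjusted p = 0.31). Cdk1 measured 3.03, 6.5 and 1.93 CPM in ∆Foxp3 cells versus 15.1, 4.21 and 20.1 CPM in WT cells (edgeR log2 fold change -1.69 ± 0.65 SE, adjusted p = 0.345). In these 3 genes WT replicate 2 lay far below the other WT samples and within the ∆Foxp3 range.

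Cenpa measured 28.9, 27.3 and 32.2 CPM in ∆Foxp3 cells versus 57.5, 38 and 59.8 CPM in WT cells (edgeR log2 fold change -0.64 ± 0.18 SE, adjusted p = 0.146), and with the block -0.67 ± 0.09 SE (adjusted p = 0.00079 by edgeR). Its genotypes did not overlap. The members nearest to 0 were spindle genes again. Tubb4b measured 139.8, 117 and 118 CPM in ∆Foxp3 cells versus 179, 131 and 167 CPM in WT cells (edgeR log2 fold change -0.20 ± 0.16 SE, adjusted p = 0.794). Kif20b measured 9.34, 12.8 and 6.84 CPM in ∆Foxp3 cells versus 15.1, 8.21 and 13.4 CPM in WT cells (edgeR log2 fold change -0.20 ± 0.31 SE, adjusted p = 0.936). Kif23 measured 4.63, 6.67 and 5.79 CPM in ∆Foxp3 cells versus 9.58, 6.11 and 13.1 CPM in WT cells (edgeR log2 fold change -0.59 ± 0.29 SE, adjusted p = 0.553). All 3 overlapped between genotypes. Without WT replicate 2, which stood with the ∆Foxp3 samples, 14 mitosis members fell. That replicate was the only WT chimera sample in the 10x channel of ∆Foxp3 replicates 1 and 3. Without it, genotype and channel are mixed, and no share of all genes is given for this count.

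The 10x channel differs among the chimera samples. In the channel of ∆Foxp3 replicates 1 and 3, the mitosis module summed to 547 and 539.8 CPM, against 665 CPM in WT replicate 2. In the other channel, ∆Foxp3 replicate 2 held 644 CPM, against 1300.2 and 1531 CPM in WT replicates 1 and 3. The order of the genotypes in this sum was the same in both channels, each of which held 1 sample of one genotype. Single members differed within mouse 2. Of the mitosis members fixed for every comparison, Mki67, Top2a and Cdk1 were higher in its ∆Foxp3 cells, at 15.2, 24 and 6.5 CPM, against 9.58, 16.4 and 4.21 CPM. Ccnb1 was lower, at 3.0 CPM, against 5.16 CPM in its WT cells. The part of the channel was not tested alone. With the channel as a term of the model, 15 mitosis members and 1 replication member fell. The share of all genes that fell in that fit is not given here. Erythroid genes, 6 of 6 measured, summed to 10.3, 3.17 and 9.99 CPM in ∆Foxp3 chimera samples, against 2.13, 62 and 218 CPM in WT chimera samples. The part of these genes alone in the result was not tested.

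Whether the genotype difference itself differed between mice and chimeras was tested as an interaction, mice minus chimeras, within the V3 samples. It was positive and past the threshold for 18 of 22 replication members, with a median of 1.6, and for 28 of 28 mitosis members, with a median of 4.72. Of all genes, 18.7% were past it in that direction and 18.1% in the other. The median over all genes tested was -0.01. Ccna2 had the largest value, 5.98 ± 1.06 SE on the log2 scale (adjusted p = 0.000464 by edgeR). Cenpa had the lowest adjusted p, with 2.77 ± 0.28 SE (adjusted p = 3.56e-06 by edgeR). The smallest mitosis value was that of Tubb4b, 0.85 ± 0.25 SE (adjusted p = 0.0162 by edgeR). In the replication module Rrm2 led with 3.9 ± 0.92 SE (adjusted p = 0.00392 by edgeR). Ung, Mcm4, Mcm2 and Hells were the 4 members that did not pass it. Age, host and irradiation differ between mice and chimeras as well, and cannot be told apart from the genotype's setting.

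Sorted WT Treg were set against sorted WT Tconv to see how the module stands in Treg that keep Foxp3. Of 28 mitosis members, 1 rose, and of 22 replication members 0 did, where 6.16% of all genes rose and 6.01% fell. At an unadjusted p under 0.05, edgeR counted 4 of each module (share of all genes at that threshold not given). Fold changes were positive for 26 of 28 and 21 of 22. The member called was Cenpa, at 59.6 and 88.3 CPM in Treg versus 22.2 and 40.8 CPM in Tconv (edgeR log2 fold change 1.08 ± 0.33 SE, adjusted p = 0.0439). Its 2 Treg samples were both above the Tconv samples. Without cells that held 2 or more marker genes of another type it was not called. With the shared 10x channel as a replicate block, 7 mitosis members and 1 replication member rose (share of all genes not given).

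Replicates of this pair varied widely for other members. Mki67 measured 41 and 95.1 CPM in Treg versus 2.07 and 37.7 CPM in Tconv (edgeR log2 fold change 1.95 ± 1.03 SE, adjusted p = 0.259). Birc5, the highest of the mitosis module, measured 19.3 and 91 CPM in Treg versus 1.55 and 17.8 CPM in Tconv (edgeR log2 fold change 2.65 ± 1.21 SE, adjusted p = 0.186). Ccna2 measured 10.8 and 46.9 CPM in Treg versus 1.03 and 11.5 CPM in Tconv (edgeR log2 fold change 2.34 ± 1.35 SE, adjusted p = 0.31). In all 3, replicate 2 of each group was well above replicate 1, and Tconv replicate 2 lay close to Treg replicate 1. Top2a measured 45.8 and 149 CPM in Treg versus 5.17 and 52.4 CPM in Tconv (edgeR log2 fold change 1.86 ± 1.01 SE, adjusted p = 0.272), Cdk1 5.42 and 35.3 CPM in Treg versus 1.03 and 13.6 CPM in Tconv (edgeR log2 fold change 1.61 ± 1.29 SE, adjusted p = 0.485) and Ccnb1 8.43 and 21.7 CPM in Treg versus 1.55 and 14.7 CPM in Tconv (edgeR log2 fold change 1.02 ± 0.86 SE, adjusted p = 0.52). Bub1 had 13 UMIs in Treg and 2 in Tconv, a ratio of 6.0 (1.36 to 54.7). Of replication genes, Rrm2 measured 19.3 and 44.1 CPM in Treg versus 1.55 and 14.7 CPM in Tconv (edgeR log2 fold change 2.11 ± 1.33 SE, adjusted p = 0.358). E2f1 had 13 UMIs in Treg and 1 in Tconv, a ratio of 12 (1.8 to 509.8). Cdc6 had 5 UMIs in Treg and 0 in Tconv, which is at least 1.54-fold higher when the Tconv group is set to a floor of 3 UMIs. Pcna measured 37.4 and 69.3 CPM in Treg versus 37.7 and 47.1 CPM in Tconv (edgeR log2 fold change 0.09 ± 0.31 SE, adjusted p = 0.907), and Mcm5 measured 12 and 34 CPM in Treg versus 13.4 and 9.42 CPM in Tconv (edgeR log2 fold change 0.63 ± 0.61 SE, adjusted p = 0.579). Cdt1, Ung, Kif23, Tubb4b and Cdc20 had log2 fold changes of 0.04, -0.39, -0.45, -0.07 and 0.43, the smallest of their modules. The median gene stood 0.23 higher (log2) in Treg before TMM scaling, and the sign of Tubb4b depends on it. B cell markers, 12 of 12 measured, summed to 419 and 553 CPM in Treg samples, against 211 and 221 CPM in Tconv samples. Cells with 2 or more B cell genes were 27.2% and 49.4% of Treg samples, against 12.2% and 16.2% of Tconv samples. Such cells were left out of the fit in which Cenpa was not called. The part of B cell markers alone was not tested.

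The authors' annotation divides cells into activated Tconv, resting Tconv and Treg, which allows the genotypes to be compared within each class. In activated Tconv of the first experiment, 6 of 18 replication and 18 of 24 mitosis members rose in ∆Foxp3 mice, where 9.16% of all genes rose. Birc5 had the largest fold change there, 3.43 ± 0.49 SE (adjusted p = 0.00138 by edgeR). Mki67 measured 21.1 and 31.8 CPM in ∆Foxp3 mice versus 2.17 and 8.54 CPM in WT mice (edgeR log2 fold change 2.33 ± 0.46 SE, adjusted p = 0.00712), and Top2a measured 40 and 62.5 CPM in ∆Foxp3 mice versus 10.9 and 15.8 CPM in WT mice (edgeR log2 fold change 1.93 ± 0.29 SE, adjusted p = 0.00182). Both ∆Foxp3 samples exceeded both WT samples for these genes. DESeq2 called 11 members. By edgeR fewer were called without WT replicate A, which leaves 1 WT sample, than with all samples (shares of all genes not given). In activated Tconv of the second experiment, 5 of 21 replication and 4 of 28 mitosis members rose, where 5.31% of all genes rose and 4.7% fell. They were Dut, Mcm7, Rrm1, Ccne1 and Uhrf1, and Cenpa, Ccnb2, Cdc20 and Ccnb1. Ccnb1 measured 59.7 and 89.5 CPM in ∆Foxp3 mice versus 21.7 and 21.4 CPM in WT mice (edgeR log2 fold change 1.82 ± 0.55 SE, adjusted p = 0.0454). Mki67 measured 198 and 301 CPM in ∆Foxp3 mice versus 69.6 and 107 CPM in WT mice (edgeR log2 fold change 1.56 ± 0.62 SE, adjusted p = 0.122), and Top2a measured 149 and 309 CPM in ∆Foxp3 mice versus 111 and 194 CPM in WT mice (edgeR log2 fold change 0.65 ± 0.62 SE, adjusted p = 0.557). For Top2a the WT samples reached into the ∆Foxp3 range. Fold changes were positive for 49 of 49 members tested, and 31 of them rose with the shared channel as a replicate block (share of all genes not given). Fewer members were called without ∆Foxp3 replicate 2, WT replicate 1 or WT replicate 2 than with all samples. Each of these fits leaves 1 sample in a group, and their shares of all genes are not given.

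In activated Tconv of the chimeras, 0 members passed the test by edgeR and 1 by DESeq2. At an unadjusted p under 0.05, edgeR counted 4 replication and 27 mitosis members (share of all genes at that threshold not given). Fold changes were negative for 28 of 28 mitosis and 19 of 21 replication members. At adjusted p under 0.05, 0.0572% of all genes rose and 0.0801% fell. Mki67 measured 26.9, 56 and 20.1 CPM in ∆Foxp3 cells versus 153, 36.8 and 218 CPM in WT cells (edgeR log2 fold change -1.85 ± 0.54 SE, adjusted p = 0.339), and Ube2c 30.9, 18.1 and 20.1 CPM in ∆Foxp3 cells versus 165, 23.1 and 278 CPM in WT cells (edgeR log2 fold change -2.57 ± 0.66 SE, adjusted p = 0.282). WT replicate 2 was again close to the ∆Foxp3 samples. With the mouse as a block, 22 members fell, and the share of all genes in that fit is not given. Genotypes of each mouse differed in channel there too.

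Resting Tconv also differed by genotype in mice. In ∆Foxp3 mice of the second experiment, 17 of 20 replication and 26 of 27 mitosis members rose in this class, where 22.2% of all genes rose. Mki67 measured 49.8 and 151 CPM in ∆Foxp3 mice versus 1.99 and 1.71 CPM in WT mice (edgeR log2 fold change 5.44 ± 0.54 SE, adjusted p = 2.09e-08). Ccnb2 measured 43.5 and 122 CPM in ∆Foxp3 mice versus 1.71 and 1.14 CPM in WT mice (edgeR log2 fold change 5.49 ± 0.52 SE, adjusted p = 9.44e-09). Hmgb2 measured 946 and 1803 CPM in ∆Foxp3 mice versus 193 and 218 CPM in WT mice (edgeR log2 fold change 2.47 ± 0.18 SE, adjusted p = 1.38e-10). For these 3 genes the WT samples lay far below both ∆Foxp3 samples. In the first experiment, 6 of 20 replication and 20 of 24 mitosis members rose and Tubb4b fell, where 12% of all genes rose and 7.63% fell. DESeq2 called 15 members. By edgeR fewer were called without ∆Foxp3 replicate A, WT replicate A or WT replicate B than with all samples. Each of these fits leaves 1 sample in a group (shares of all genes not given). There Aurkb, the kinase of the passenger complex, led with 4.07 ± 0.50 SE (adjusted p = 0.00149 by edgeR). Mki67 measured 3.22 and 5.7 CPM in ∆Foxp3 mice versus 0.0813 and 0.538 CPM in WT mice (edgeR log2 fold change 3.73 ± 0.64 SE, adjusted p = 0.00636), and Pcna measured 61.4 and 60 CPM in ∆Foxp3 mice versus 61.3 and 62.9 CPM in WT mice (edgeR log2 fold change -0.04 ± 0.08 SE, adjusted p = 0.807). In chimera resting Tconv, 0 members passed, medians were -0.01 and -0.24 for replication and mitosis, and 1.28% of all genes were called, 0.412% as lower. Mki67 measured 2.17, 3.11 and 1.02 CPM in ∆Foxp3 cells versus 2.46, 2.67 and 2.51 CPM in WT cells there (edgeR log2 fold change -0.35 ± 0.63 SE, adjusted p = 0.996), with overlap.

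The label of this class was checked against its own genes, chosen after values were seen. Mitosis-negative resting cells of V3 ∆Foxp3 mice held S100a4, a gene of activated T cells, at 2406 and 2827 CPM, against 22.2 and 46.2 CPM in those of WT mice aged 9 weeks. Ccr7, the lymph node homing receptor of naive cells, stood at 130 and 99.2 CPM in ∆Foxp3 cells, against 380 and 352 CPM in WT cells. So cells under the resting label of V3 ∆Foxp3 mice differed from WT cells of that label in more than cell cycle genes. Their mitosis-positive cells had median UMIs of 9306 and 15763, against 6158 and 7242 in the other resting cells of the same samples. Of those mitosis-positive cells, 27.1% and 51.9% held 2 or more marker genes of another cell type, against 21.3% and 30.5% of the other resting cells. In mitosis-positive activated cells of these samples it was 32.2% and 45.6%. The deposited Scrublet doublet score had medians of 0.0668 and 0.0874 in the mitosis-positive resting cells, against 0.0752 and 0.0734 in the other resting cells, so only replicate 2 scored higher.

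In the Treg class few cells limit the test. In the first experiment Mcm6, Dut and Hmgb2 rose in ∆Foxp3 cells of this class and Tubb4b fell, of 15 members tested, where 8.54% of all genes rose and 7.79% fell. Mcm6 had a log2 fold change of 1.13 ± 0.24 SE (adjusted p = 0.00223 by edgeR) and Tubb4b of -1.13 ± 0.21 SE (adjusted p = 0.000702 by edgeR). In the second experiment 4 mitosis members of 17 rose, where 3.6% of all genes rose and 3.49% fell (7.09% in all): Hmgb2, Ube2c, Mki67 and Cks1b. Mki67 had 101 UMIs in ∆Foxp3 samples, against 3 in WT samples. With the shared channel as a replicate block 12 members rose (share of all genes not given). Fewer members were called without ∆Foxp3 replicate 2, WT replicate 1 or WT replicate 2 than with all samples, and more without ∆Foxp3 replicate 1. Each of these fits leaves 1 sample in a group, and their shares of all genes are not given. In the chimeras 0 of 32 passed, where 0.179% of all genes rose and 0.179% fell (0.359% in all).

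Single cells were then scored one by one. Each cell was thinned to 1500 UMIs, which left out 0 cells, and a cell was counted as positive for a module when 3 or more of its members had a UMI. Mitosis-positive cells made up 17.9% and 26.3% of V3 ∆Foxp3 mice, against 2.7% and 5.11% of WT mice aged 9 weeks. In the first experiment they made up 8.78% and 10.7% of ∆Foxp3 samples, against 2.73% and 2.3% of WT samples. ∆Foxp3 samples were higher in both experiments without overlap, but 2 against 2 samples cannot give an exact two-sided permutation p under 1 in 3. In the chimeras they made up 2.34%, 1.32% and 1.93% of ∆Foxp3 cells, against 5.62%, 2.54% and 4.65% of WT cells, lower in 3 of 3 mice. An exact two-sided permutation test that ignores the pairing by mouse gave p = 0.1, the smallest that 3 against 3 allows. The paired sign-flip test is given in the part on processing below. The genotypes of each chimera mouse also differed in 10x channel. Sorted Treg held 3.63% and 6.93%, against 0% and 2.7% in sorted Tconv. With 2 or more members required, the direction turned, with a difference of -0.718 percentage points, Treg minus Tconv. With 0 of 362 cells positive in Tconv replicate 1, a share of up to 0.829% is allowed at a count of 0. Intervals and floors here cover counting error only.

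Replication-positive cells were also more frequent in ∆Foxp3 mice than in WT mice. They made up 4.22% and 6.24% in ∆Foxp3 mice, against 2.47% and 2.32% in WT mice, and 8.89% and 15.9% in ∆Foxp3 mice, against 1.72% and 3.41% in WT mice in the second experiment. Chimera samples held 1.08%, 2.64% and 1.59% in ∆Foxp3 cells, against 3.75%, 1.89% and 2.62% in WT cells, with overlap (exact two-sided permutation p = 0.3, pairing by mouse ignored), and ∆Foxp3 cells were the higher ones in mouse 2. Without thinning, mitosis-positive shares averaged 64.1% in V3 ∆Foxp3 mice, against 32% in WT mice aged 9 weeks, and 26.1% in ∆Foxp3 chimera cells, against 33.1% in WT chimera cells. As a background, resting cells of the sorted Tconv, which should hold few dividing cells, had 0 of 308 and 2 of 108 cells positive for mitosis members after thinning, a mean of 0.926%. Free RNA was not measured, and its part in these shares was not tested. In chimera resting Tconv the thinned shares were 1.71%, 0.154% and 1.41% of ∆Foxp3 cells, against 3.5%, 2.04% and 2.45% of WT cells. The genotypes did not overlap there, and the ∆Foxp3 values lay within the range of the sorted Tconv. This separation held at 3 or more members only. With 5 or more mitosis members, resting shares were 0%, 0% and 0.0565% of ∆Foxp3 cells, against 0%, 0.0727% and 0% of WT cells, with overlap.

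A stricter count took cells with 10 or more mitosis members detected. They were 4.3% and 10.4% of V3 ∆Foxp3 mice, against 0.369% and 0.852% of WT mice aged 9 weeks. In V2 samples they were 0.334% and 1.87% of ∆Foxp3 cells, against 0% and 0.128% of WT cells. In chimeras they were 0.0468%, 0.11% and 0.145% of ∆Foxp3 cells, against 1.07%, 0.108% and 1.31% of WT cells. The chimera samples overlap only through WT replicate 2. This count was chosen after the data were seen.

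**Figure D4:**
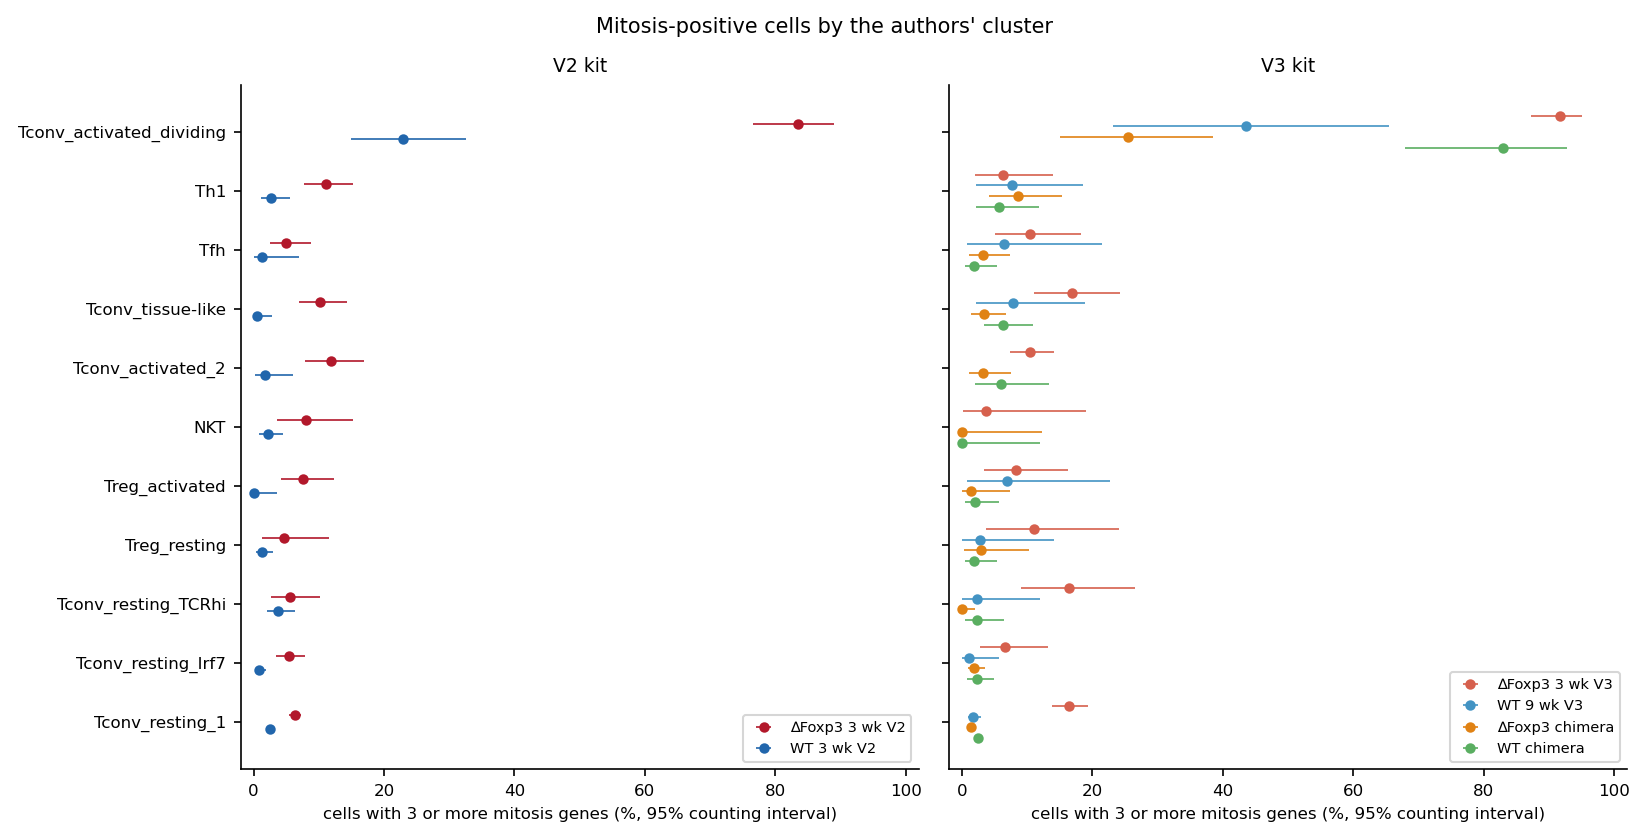
Percent of cells with 3 or more mitosis members by the authors' cluster, each cell thinned to 1500 UMIs, for V2 groups (left) and V3 groups (right). Bars are 95% binomial intervals of the pooled cells and cover counting error only. The dividing cluster stands highest, from 22.9% in WT V2 mice to 91.7% in V3 ∆Foxp3 mice.

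By cluster of the authors' annotation, the cells were unevenly spread. These clusters were made from the same transcripts, so the shares are descriptions with no test. The cluster named dividing held 217 cells of V3 ∆Foxp3 mice, of which 91.7% were mitosis-positive, against 23 cells and 43.5% in WT mice aged 9 weeks. In V2 mice it held 151 ∆Foxp3 cells with 83.4% positive, against 96 WT cells with 22.9%. In chimeras the genotypes stood in the opposite order, with 59 ∆Foxp3 cells and 25.4% positive, against 41 WT cells and 82.9%. Most cells positive by this count of 3 members lay elsewhere in these groups, and the count includes broadly expressed members. After thinning, Hmgb2 was detected in 27.4%, Tubb4b in 21.5% and Mki67 in 0.06% of cells of the largest resting cluster in V2 WT mice. In V3 ∆Foxp3 mice, cells with 10 or more members were 8.91% and 16% of activated Tconv, against 0.42% and 5.4% of resting Tconv. The dividing cluster held 46.8% of the mitosis-positive cells of V3 ∆Foxp3 mice, against 25% in WT mice aged 9 weeks. Of the largest resting cluster, 13.8% and 19.3% were mitosis-positive in V3 ∆Foxp3 mice, against 1.62% and 1.87% in WT mice aged 9 weeks.

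**Figure D5:**
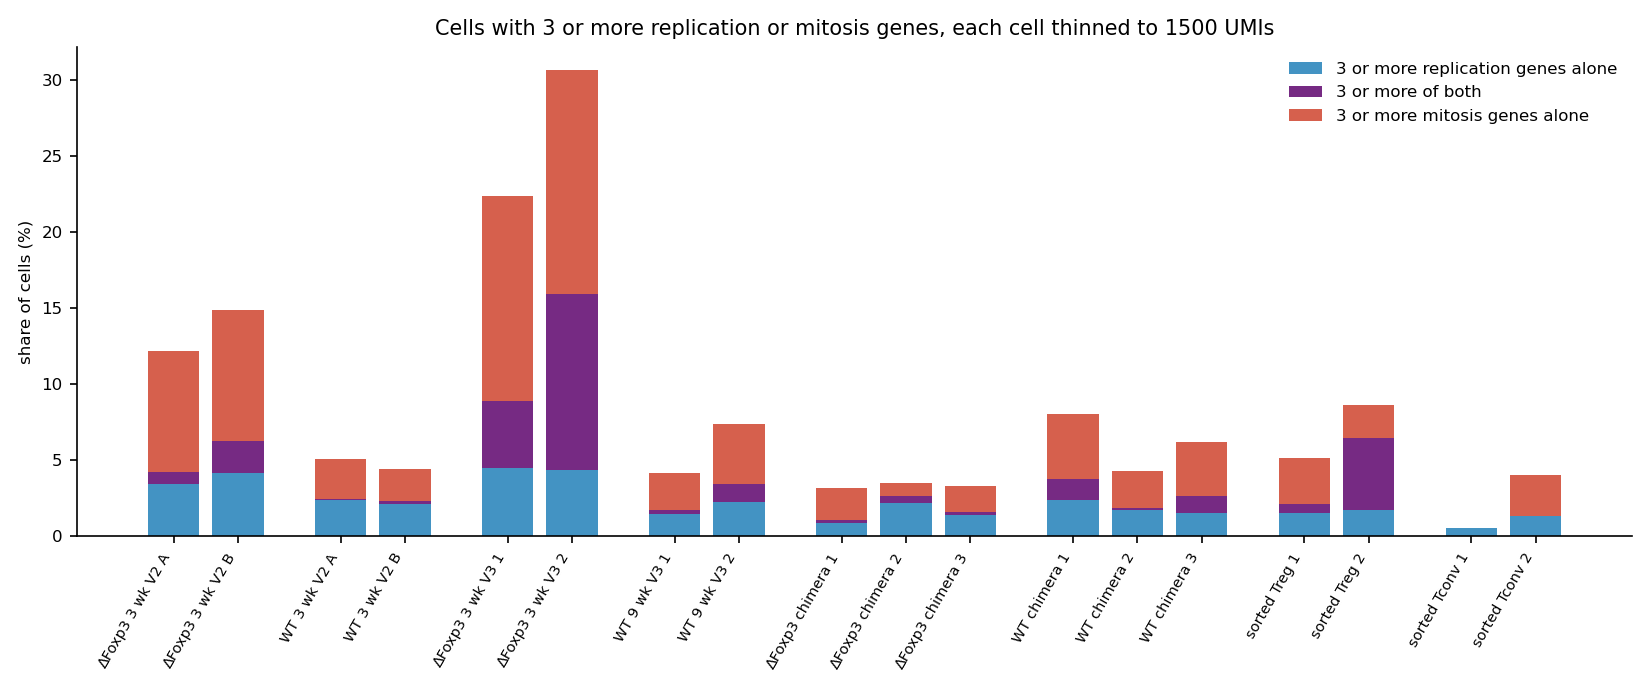
Percent of cells of each sample that were positive for replication members alone, for both modules, or for mitosis members alone, with each cell thinned to 1500 UMIs. Each bar is 1 sample and starts at 0. V3 ∆Foxp3 mice reach 22.4% and 30.7% in all, and cells positive for both make up 4.4% and 11.5%.

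The 2 modules overlapped in part. Of the positive cells of V3 ∆Foxp3 mice, 19.6% and 37.6% were positive for both modules, against 5.88% and 15.4% in WT mice aged 9 weeks. In V2 samples both modules were found in 6.47% and 14% of positive ∆Foxp3 cells, against 1.86% and 4.02% of positive WT cells. Mitosis-positive cells of V3 ∆Foxp3 mice held on average 2.27 and 3.68 UMIs of replication members, against 0.858 and 0.986 in the other cells of those samples. No replication member was seen in 34.1% and 18.3% of these mitosis-positive cells, at 1500 UMIs a cell. They also held more UMIs, while cell size was not measured. Before thinning their median UMI count was 1.55 and 1.92 times that of the cells positive for neither module, against 1.04 and 1.11 times in WT mice aged 9 weeks. Among V3 samples this ratio ran from 0.945 to 2.63. The highest was that of sorted WT Treg replicate 2, so a raised ratio was not particular to ∆Foxp3 mice. In V2 samples this ratio lay between 0.943 and 1.08 in all 4 samples.

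Genes around the 50 members were described from 6 further lists of cell cycle genes. Of all genes tested, 22.1% rose and 20.9% fell in V3 ∆Foxp3 mice, and 14.4% rose and 9.61% fell in V2 ∆Foxp3 mice. Of other replication genes, 16 of 18 rose and 0 fell in V3 ∆Foxp3 mice, and 10 of 16 rose in V2 ∆Foxp3 mice. The lowest p in both was that of Rpa2, a subunit of the protein that coats single-stranded DNA, with a log2 fold change of 1.45 (adjusted p = 3.92e-06 by edgeR) in V3 mice and a log2 fold change of 0.99 (adjusted p = 0.00189 by edgeR) in V2 mice. Of other mitosis genes, 35 of 38 rose and 1 fell in V3 ∆Foxp3 mice, and 21 of 31 rose and 1 fell in V2 ∆Foxp3 mice. The one that fell in V3 mice was Smc4, a condensin subunit, with a log2 fold change of -0.98 (adjusted p = 8.49e-06 by edgeR), and Lmnb1, a nuclear lamin, had a log2 fold change of 2.23 (adjusted p = 3.65e-05 by edgeR). In the chimeras 0 of both lists passed, where 0.211% of all genes rose and 0.247% fell.

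CDK inhibitors moved both ways in mice. Of 6 tested, 4 rose in V2 ∆Foxp3 mice, where 14.4% of all genes rose and 9.61% fell. In V3 ∆Foxp3 mice 3 rose and 1 fell, where 22.1% of all genes rose and 20.9% fell. Cdkn1a, which encodes p21, had 154 UMIs in V3 ∆Foxp3 samples, against 5 in WT samples (a log2 fold change of 3.37 (adjusted p = 0.000223 by edgeR)). Cdkn2a, the locus of p16 and p19, had 134 UMIs in V3 ∆Foxp3 samples and 0 in WT samples, which is at least 18.2-fold higher with the WT group set to a floor of 3 UMIs. In V2 mice Cdkn2a had 73 UMIs in ∆Foxp3 samples, against 2 in WT samples. Cdkn2c, p18, had a log2 fold change of 1.59 (adjusted p = 0.00671 by edgeR) in V3 mice and a log2 fold change of 1.11 (adjusted p = 0.0177 by edgeR) in V2 mice. The inhibitor that fell was Cdkn1b, p27, with a log2 fold change of -0.75 (adjusted p = 7.11e-06 by edgeR) in V3 mice.

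Of 8 quiescence genes, 0 rose and 5 fell in V3 ∆Foxp3 mice, while 1 rose and 4 fell in V2 ∆Foxp3 mice. The shares of all genes that rose and fell were 22.1% and 20.9% in V3 mice, and 14.4% and 9.61% in V2 mice. Foxp1, which keeps naive T cells quiescent, had a log2 fold change of -2.04 (adjusted p = 3.09e-08 by edgeR) in V3 mice and a log2 fold change of -0.63 (adjusted p = 0.00566 by edgeR) in V2 mice. Foxo1 had a log2 fold change of -1.41 (adjusted p = 3.74e-06 by edgeR) in V3 mice. Slfn2, known for holding T cells in rest, went the other way in V2 mice, with a log2 fold change of 0.49 (adjusted p = 0.0090 by edgeR). Of the 7 G1 cyclins and kinases, Cdk6 rose in both experiments, with a log2 fold change of 2.23 (adjusted p = 1.72e-06 by edgeR) in V3 mice and a log2 fold change of 1.82 (adjusted p = 0.0195 by edgeR) in V2 mice. Ccnd2, cyclin D2, and Myc fell in V3 ∆Foxp3 mice, with a log2 fold change of -1.11 (adjusted p = 1.08e-06 by edgeR) and a log2 fold change of -1.26 (adjusted p = 2.19e-06 by edgeR). Of pocket protein, E2F and related genes, 9 of 15 rose in V3 ∆Foxp3 mice, and 5 of 14 rose and 1 fell in V2 ∆Foxp3 mice. E2f2 had a log2 fold change of 1.97 (adjusted p = 1.86e-06 by edgeR) in V3 mice, and Foxm1, the activator of mitotic genes, a log2 fold change of 2.97 (adjusted p = 0.000544 by edgeR). None of these lists gave a call in the chimeras, where 0.211% of all genes rose and 0.247% fell. In sorted Treg against sorted Tconv, where 6.16% of all genes rose and 6.01% fell, 1 of 7 G1 cyclins and kinases rose, Cdk6, with a log2 fold change of 1.67 (adjusted p = 0.0038 by edgeR). Of 15 pocket protein, E2F and related genes 3 rose (E2f2, Rbl2 and E2f8), and of 38 other mitosis genes 3 rose (Smc4, Cdc25b and Pbk). Of 8 quiescence genes 5 fell, among them Klf2, with a log2 fold change of -1.0 (adjusted p = 5.77e-05 by edgeR), and of 6 CDK inhibitors 1 fell, Cdkn2d. No other replication gene of 18 passed.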

How the data were processed

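UMIs were counted in splenic CD4 T cells of 18 samples in 8 groups. The matrix deposited by the authors holds UMI counts per gene and cell. The submitters' processing notes name Cell Ranger 3.0.2 and mm10 without a role for either. Use of strand in counting: not given in the sources used here. The percent of mitochondrial UMIs, the Scrublet doublet score and the fraction of reads in cells are the authors' values, deposited with the matrix. The doublet call beside that score is negative for every deposited cell, so it gives no check on doublets, and no cell was removed. Classes and clusters are the authors' annotation. Another 48 metadata columns were not used. The deposited metadata name the V3 kit for all cells, and the labels' V2 for the first experiment was followed.

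Counts were summed per sample over all cells or a class (20 cells or more) and tested by edgeR 4.0.16 under R 4.3.3, with TMM scaling, genes kept by filterByExpr (min.count 10), the quasi-likelihood F test and Benjamini-Hochberg adjustment over all genes. The 4 V2 samples had their own fit and the 14 V3 samples shared one. Replicates differed beyond counting error, with chi-square per degree of freedom of 2.15 to 12.6. The test was checked on simulated counts. Shares of cells used 1500 UMIs a cell, exact permutation over samples and exact binomial intervals. Figures came from matplotlib 3.10.9, and tables from pandas 2.3.3 and scipy 1.17.1 under Python 3.11.15. Alternatives were DESeq2 1.42.0, RLE scaling, no filter, blocks, left-out samples, and other thinning and member numbers.

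Chimera samples of one number come from 1 mouse and ran in different 10x channels. In V3 mice and the sorted pair, equal numbers share a 10x channel per the deposited metadata, with correlations of replicate deviations of 0.14 and 0.0983. Chimera pairs gave 0.0599, 0.0529 and 0.0215. V2 numbers pair nothing that the labels state. Members, gene lists and tests were chosen with earlier results of these data known. For each comparison of all cells, values per sample are given for the 3 highest and 3 lowest fold changes of each module and for Mki67, Top2a, Pcna, Mcm5, Ccnb1 and Cdk1. Within classes part of these are given. Of further lists, up to 4 genes with the lowest p were open to naming. Other genes named with values, among them Mcm6, Tyms, Rrm1, Dut, Slbp, Cenpa, Birc5, Rrm2, Uhrf1 and E2f1 where outside that rule, were chosen after their values were seen.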

Additional observations from a re-analysis of the deposited data

Results flagged for a closer look

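The genotype difference changed between mice and chimeras for 18 replication and 28 mitosis members, where an interaction term tested the difference of the differences within the V3 samples. On the log2 scale and as mice minus chimeras, the replication members with the largest values were Rrm2 at 3.9, Uhrf1 at 3.88 and Ccne2 at 3.61, while Mcm5 had 1.64 and Pcna 0.81. Adjusted p by edgeR was 0.00392 for Rrm2, 0.00216 for Uhrf1, 0.0101 for Ccne2, 0.0090 for Mcm5 and 0.0333 for Pcna. Of mitosis members, Ccna2 had 5.98, Ccnb2 5.39, Ube2c 5.32, Mki67 5.07, Ccnb1 4.93, Cdk1 4.91 and Top2a 3.79, all called by edgeR with adjusted p between 5.49e-05 for Ccnb2 and 0.00412 for Top2a. The smallest values were those of Kif23 at 2.0, Kif20b at 1.56 and Tubb4b at 0.85, with adjusted p of 0.00277, 0.0223 and 0.0162 by edgeR. In each of these genes the value was positive and the chimera part of it did not pass the test by itself without the mouse as a block. Groups of 2 or 3 samples allow no test of a single outlying sample.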

How the results depend on the processing

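Of the alternatives for single members, 2380 kept direction and side of the threshold, 135 passed it newly, 118 lost it and 1 reversed: Tubb4b in resting Tconv of V3 mice had -0.53 without ∆Foxp3 replicate 2 and 0.43 without ∆Foxp3 replicate 1. Of summary results, 219 held, 72 moved and 1 reversed. The causes were not tested.

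The mouse as a replicate block in chimeras, and the shared channel as a block elsewhere, gave 17 mitosis members in chimeras, 1 replication and 7 mitosis members in Treg against Tconv, 31 in V3 activated Tconv, 22 in chimera activated Tconv, 1 in chimera resting Tconv and 12 in the V3 Treg class. In V2 mice, whose numbers had a correlation of 0.0771, the block changed no count by more than 1.5 times. With the 10x channel as a term, chosen after seeing the data, counts were 1 and 15 (replication and mitosis) in chimeras, 4 and 12 in Treg against Tconv, 30 in V3 activated Tconv and 10 in the V3 Treg class. With no filter on low counts they were 5 and 24 in chimeras, 7 and 19 in Treg against Tconv, 40 in V3 activated Tconv, 31 in chimera activated Tconv, 1 in chimera resting Tconv, and 10 and 14 in the V2 and V3 Treg class. DESeq2 gave 1 and 2 in Treg against Tconv, 11 in V2 activated Tconv, 1 in chimera activated Tconv, 15 in V2 resting Tconv, and 2 and 1 in the V2 and V3 Treg class. A fit of only the groups compared gave 2 mitosis members in chimeras, 3 and 4 in Treg against Tconv, 25 in V3 activated Tconv and 7 in the V3 Treg class. Without cells holding other cell types' markers, 0 mitosis members were called in Treg against Tconv. Shares of all genes called are not given for these fits, apart from the blocked fit of all chimera cells above.

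For shares of cells, differences are in percentage points, ∆Foxp3 minus WT or Treg minus Tconv. With 2 or more members the V2 replication difference was 4.77, and the mitosis differences were 12.6 in V2 mice, 25.5 in V3 mice, -4.3 in chimeras and -0.718 in Treg against Tconv, which reversed. With 5 or more, V2 differences were 1.07 for replication and 2.96 for mitosis. Without thinning, replication differences were 6.72, 30.5 and -4.32 in V2 mice, V3 mice and chimeras, and mitosis differences 15.5, 32.1 and -6.97. The V2 mitosis difference was 4.47 at 1000 UMIs and 3.0 without 5 broadly expressed members. For mitosis shares, an exact sign-flip permutation test over the 3 chimera pairs gave p = 0.25, the smallest it allows.

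Leaving out 1 sample at a time, which assumes that a lone sample varies like the other groups, gave 1 to 12 replication and 11 to 26 mitosis calls in V2 mice, 4 to 21 and 13 to 28 in V3 mice, 0 and 0 to 14 in chimeras, and 0 to 1 and 0 to 2 in Treg against Tconv. The interaction gave 34 to 48. Activated Tconv gave 14 to 27 in V2 mice, 0 to 9 in V3 mice and 0 to 24 in chimeras. Resting Tconv gave 11 to 28 in V2 mice, 31 to 48 in V3 mice and 0 in chimeras, and the Treg class 3 to 5 in V2 mice, 0 to 15 in V3 mice and 0 in chimeras. Shares of all genes called are not given for these counts of calls, so they do not show whether members lost calls more than other genes. Replication share differences ran from 1.83 to 3.85 in V2 mice, 6.33 to 13.4 in V3 mice, -1.42 to -0.488 in chimeras and 1.16 to 5.54 in Treg against Tconv. Mitosis share differences ran from 6.27 to 8.23, 14 to 22.4, -3.27 to -1.73 and 2.27 to 5.58 in the same order.

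Groups of 2 or 3 samples, few cells in the dividing cluster, and UMIs of members near 0 in WT samples limit every fold change. With 148 to 362 cells in sorted Tconv, shares of dividing cells there rest on 0 to 4 cells.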
